A study of Mus musculus with 20 samples.

Results

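The 36 genes described here encode machinery of cell division. Of these, 11 act in S phase, where DNA is copied and its building blocks are made, and 25 act in mitosis, from entry through chromosome segregation to the splitting of the cell. They were chosen by name for these roles, with earlier results of these data known, and all 36 are among the 34291 rows of the deposited table of read counts. Poly(A) RNA was sequenced from whole powdered hearts of 20 C57BL/6 mice. Of these, 10 mice ate 14 ppm rapamycin, which inhibits mTOR, a kinase that drives cell growth, and 10 ate a control diet without it. Feeding started at 24 months of age in both groups and lasted 3 months, so every heart was 27 months old. Neither the sex of the animals nor a batch is given in the labels, and a library is called by its diet with the number of its title.

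A cell that enters the cycle first raises genes of DNA replication, many of them driven by E2F transcription factors, and later raises mitotic genes, many of them through a promoter element called the cell cycle genes homology region (CHR), bound by complexes built around the MuvB core. The sliding clamp PCNA also takes part in DNA repair, whereas Ki-67, topoisomerase II alpha and the spindle genes are largely limited to cycling cells. Cardiomyocytes of the adult mouse heart rarely divide, and most cycling cells of that tissue are endothelial, stromal and immune cells.

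The libraries held 8525162 to 12458309 reads with rapamycin and 7039514 to 10594335 in controls. With edgeR's quasi-likelihood test and Benjamini-Hochberg adjustment over 13940 genes, 96 rose and 373 fell with rapamycin. An adjusted p under 0.05 is the threshold for every call below. Summed over 10 cardiomyocyte markers, levels were 44275 to 58001 normalised CPM (reads scaled to library size with TMM factors) with rapamycin and 15375 to 54595 in controls (15375 being control 19 and 39340 the next lowest). Of these markers 9 of 10 were above 0 and none was called (edgeR, median log2 fold change 0.29). At an unadjusted p under 0.05, 5 had a higher value, beside 8.21% of all genes. The sums averaged 52341 ± 5217 with rapamycin and 42339 ± 10775 in controls, or 45335 ± 5444 without control 19 (SD). Their part in the mitotic differences was not tested. Some libraries held transcripts of other tissues. Rapamycin 8 and control 17 held transcripts of developing thymocytes: Rag1, a recombinase of antigen receptor genes, had 126 and 27 reads there and at most 1 in any of the other 18 libraries. Control 19 held lung transcripts at 24989 normalised CPM over 7 lung genes, and rapamycin 15 (159), control 1 (399) and control 20 (71.4) held less. Rapamycin 9 held 381 normalised CPM over 7 liver genes, against at most 54.8 in any other library. Of the 36 genes, Mki67 alone is in the authors' deposited table of 700 genes.

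The mitotic genes lay lower in hearts of rapamycin-fed mice and the S-phase genes differed little. With a filter that keeps every gene with at least 20 reads summed over all 20 libraries, whatever the group, all 36 genes could be tested. All 25 mitotic genes then had a log2 fold change below 0, where 51.2% of the 18218 genes in that fit did, and the median of the 25 was -0.74, a fold of 0.598. Of the 11 S-phase genes 9 were below 0, and their median was -0.11, a fold of 0.929. The median over all genes in the fit was -0.01. Mki67 and the kinesin gene Kif2c fell at an adjusted p under 0.05 in that fit, 2 of 25 mitotic genes beside 1.9% of all genes (edgeR, called lower), and 15 of 25 had an unadjusted p under 0.05 with a lower value beside 13.6% of all genes. The difference between the 2 lists was not tested. Because these are bulk samples, fewer cycling cells and less RNA per cycling cell cannot be told apart.

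**Figure D1:**
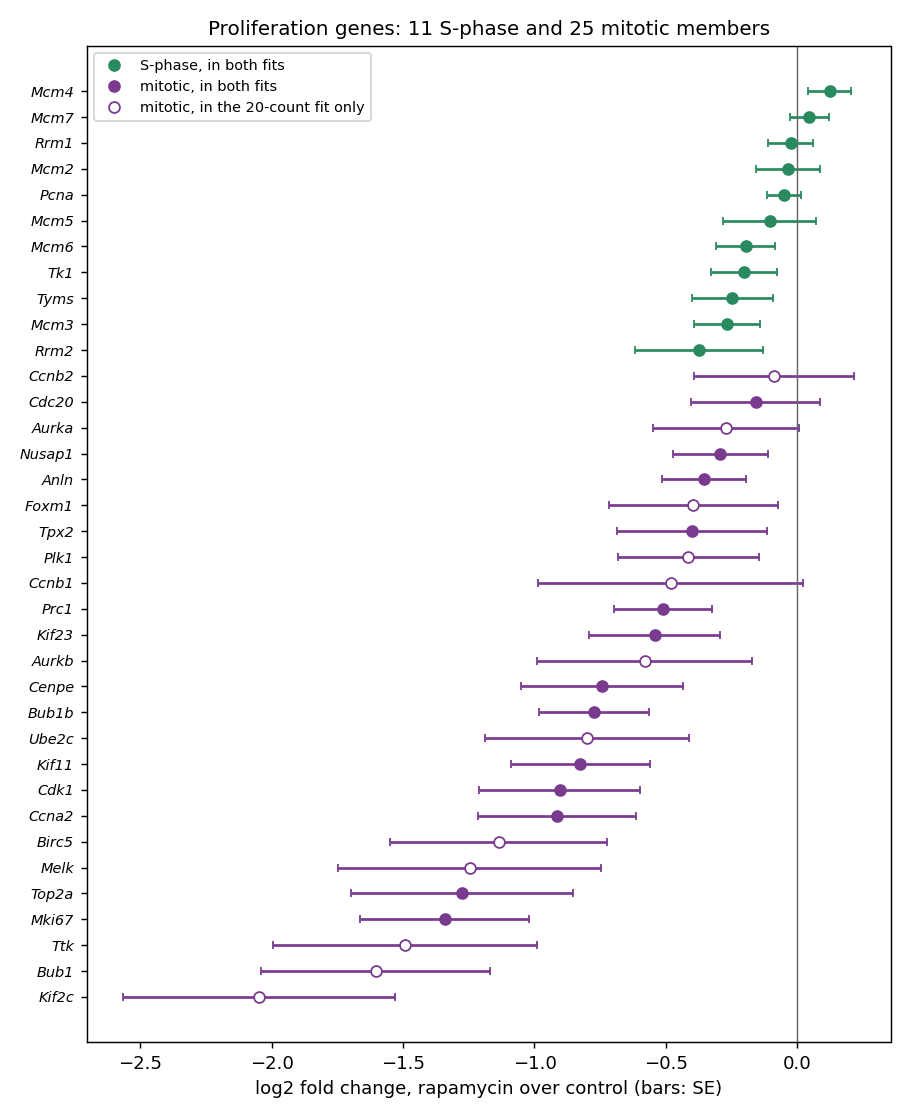
Log2 fold change of rapamycin over control (x axis, bars: standard error) for the 36 genes in the fit with at least 20 reads over all libraries, S-phase genes above and mitotic genes below, each ordered by value. S-phase values run from -0.38 to 0.12 and mitotic values from -2.05 to -0.09, and open points mark the 12 mitotic genes that did not pass edgeR's own expression filter.

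edgeR's own expression filter, used for all values below unless another is named, kept all 11 S-phase genes and 13 of the 25 mitotic genes. Mki67 and Bub1b fell in it, beside 2.68% of the 13940 genes called lower. No S-phase gene was called in either direction (background 3.36% of all genes), either by edgeR or by DESeq2. By edgeR 1 of the 11 had an unadjusted p under 0.05 with a lower value, beside 13.5% of all genes. DESeq2 called 6 mitotic genes lower, beside 4.64% of all genes. A filter that looks at groups can admit a gene through its higher group alone, so the 13 mitotic genes that passed it do not stand for the 25.

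Of the 6 helicase genes Mcm2 to Mcm7, whose products unwind DNA at the replication fork, Mcm3 and Mcm6 had the smallest p-values. Mcm3 had 5.59, 7.16 and 9.70 normalised CPM as lowest, median and highest of the 10 rapamycin hearts, and 6.03, 9.27 and 11.99 in controls, a log2 fold change of -0.29 ± 0.13 (SE) with an adjusted p of 0.188 by edgeR. The groups overlapped over most of their range, although 9 of 10 rapamycin hearts lay below the control median. Mcm6 ranged from 11.8 over a median of 12.5 to 17.6 normalised CPM with rapamycin, and from 10.8 over 15.7 to 23.2 in controls (-0.22 ± 0.11, 0.259). Control 17 was the lowest of all 20 hearts for Mcm6, and control 7 the highest. The other helicase subunits had log2 fold changes of -0.06 (Mcm2), 0.10 (Mcm4), -0.13 (Mcm5) and 0.02 (Mcm7), with adjusted p-values of 0.523 to 0.915. Control 17 was also the lowest control for Mcm3, Mcm5 and Mcm7.

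Promoters of 2 helicase genes are shown because they hold the letters of an E2F site, the element named above for S-phase genes. Each is the 160 bases before the annotated transcription start in RefSeq for GRCm38.p6, read in the direction of the gene, and capitals mark E2F matches. That build is newer than the authors' MGSCv37. The sequences come from chr8:75109349-75109508 on the plus strand (Mcm5) and chr1:128359706-128359865 on the minus strand (Mcm6).
Mcm5: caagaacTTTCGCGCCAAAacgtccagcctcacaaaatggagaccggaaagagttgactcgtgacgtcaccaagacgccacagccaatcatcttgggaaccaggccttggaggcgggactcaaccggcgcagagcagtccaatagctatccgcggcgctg
Mcm6: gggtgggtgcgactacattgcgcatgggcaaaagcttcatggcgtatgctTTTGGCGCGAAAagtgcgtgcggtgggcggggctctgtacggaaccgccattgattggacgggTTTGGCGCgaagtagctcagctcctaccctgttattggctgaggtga
In both genes a pair of matches on opposite strands overlaps to form the longer capital run, and Mcm6 holds another match nearer to its start.

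Pcna, the sliding clamp that tethers DNA polymerases, had 25.4, 28.0 and 32.9 normalised CPM as lowest, median and highest of the rapamycin hearts, and 24.6, 30.0 and 36.03 in controls (-0.08 ± 0.07, SE, adjusted p = 0.546 by edgeR). With 2769 reads in rapamycin hearts and 2923 in controls it was among the best measured of the 36. The pseudogenes Pcna-ps1 and Pcna-ps2 had 0 and 4 reads in all libraries together. The enzymes of nucleotide supply gave similar small differences. Rrm1, the large subunit of ribonucleotide reductase, had 20.4, 24.2 and 27.8 normalised CPM with rapamycin and 19.7, 24.8 and 31.7 in controls (-0.05 ± 0.09, 0.776). Its small subunit Rrm2, which is made mainly in S phase, had the largest difference of the S-phase genes with the widest error (-0.40 ± 0.24, 0.341) on 160 reads with rapamycin and 212 in controls. Tyms, the enzyme that makes thymidylate, had 2.26, 3.15 and 4.91 normalised CPM with rapamycin and 2.66, 4.19 and 5.61 in controls (-0.27 ± 0.16, 0.315). Tk1, the cytosolic thymidine kinase, had 4.89, 6.47 and 7.61 with rapamycin and 4.52, 7.31 and 10.1 in controls (-0.22 ± 0.12, 0.299). For all 4 enzymes the groups overlapped, and 8 of 10 rapamycin hearts were below the control median for Tyms and for Tk1.

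The mitotic genes with the most reads act on chromosomes in division. Mki67, which encodes Ki-67, a protein that coats mitotic chromosomes, had 1.91, 3.73 and 10.7 normalised CPM as lowest, median and highest of the rapamycin hearts, and 4.32, 11.5 and 24.3 in controls. The means were 4.35 ± 2.57 with rapamycin and 11.3 ± 6.08 in controls (SD, n = 10 each), and Mki67 fell by a log2 fold change of -1.37 ± 0.32 (SE, adjusted p = 0.0271 by edgeR). All 10 rapamycin hearts were below the control median and 7 were below every control, while rapamycin 8 stood among the controls. Top2a, the topoisomerase that untangles sister chromatids, had 0.633, 1.89 and 9.82 normalised CPM with rapamycin and 2.01, 5.99 and 14.8 in controls (-1.30 ± 0.42, 0.0820). Here 6 rapamycin hearts were below every control, and rapamycin 8 was above most controls.

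Bub1b, a kinase-like protein of the spindle checkpoint, which delays chromosome separation until every chromosome is attached, had 1.01, 1.54 and 2.57 normalised CPM with rapamycin and 1.83, 2.21 and 5.01 in controls. It fell by a log2 fold change of -0.80 ± 0.21 (SE, adjusted p = 0.0394 by edgeR), with 7 rapamycin hearts below every control. Kif11, the motor that pushes spindle poles apart, had 0.820, 1.23 and 3.68 normalised CPM with rapamycin and 1.51, 2.46 and 4.73 in controls (-0.86 ± 0.26, 0.0711), and 8 rapamycin hearts were below every control. Ccna2, cyclin A, which drives S phase and entry into mitosis, had 0.376, 0.803 and 2.23 with rapamycin and 0.833, 1.61 and 3.09 in controls (-0.94 ± 0.29, 0.0734). Prc1, which bundles the microtubules of the central spindle, had 2.70, 3.04 and 4.68 with rapamycin and 2.29, 3.90 and 8.45 in controls (-0.53 ± 0.19, 0.105). Prc1 overlapped most of these, since control 11 was the lowest of all 20 hearts. For each of these 6 mitotic genes rapamycin 8 was the highest of its group, and none of the 36 genes separated the groups completely, as 8 genes (0.0574% of those tested) did with every rapamycin heart lower.

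**Figure D2:**
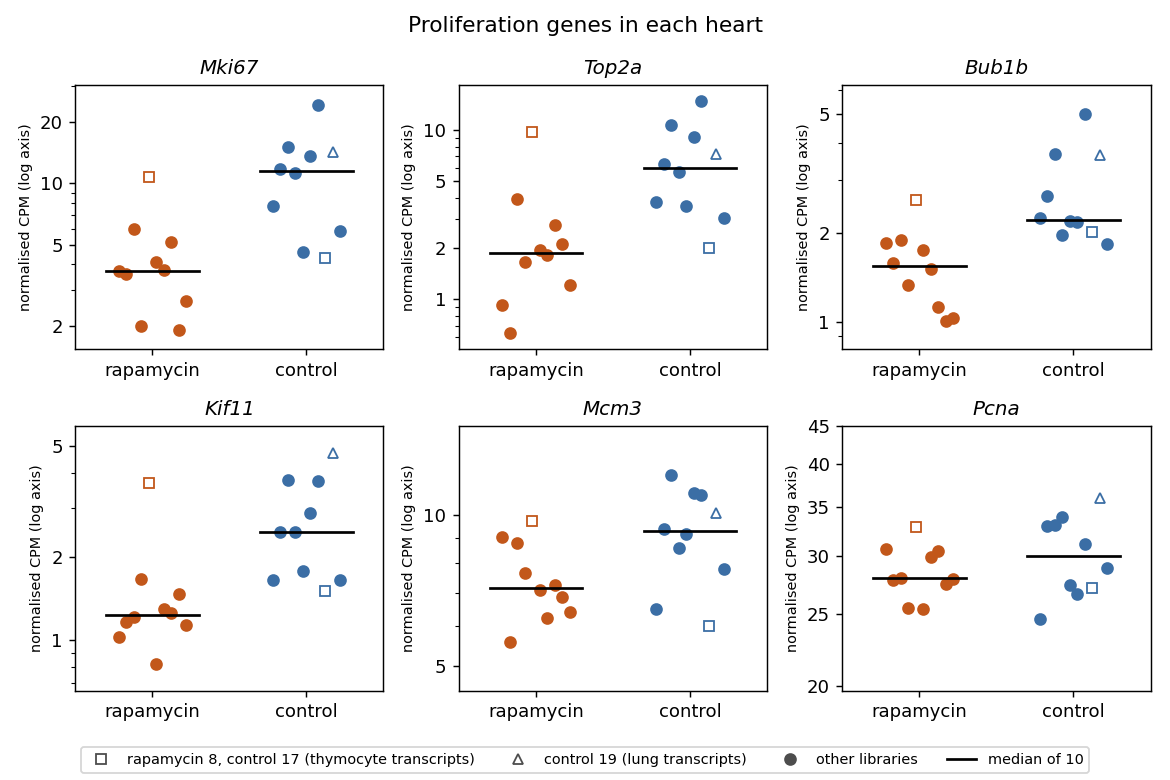
Normalised CPM (log axis) of 4 mitotic and 2 S-phase genes in each of the 10 rapamycin and 10 control hearts, with the group median as a bar. Open squares are the libraries with thymocyte transcripts (rapamycin 8 and control 17) and the triangle is control 19; rapamycin 8 lies above the rest of its group for the 4 mitotic genes, and the groups interleave for Pcna.

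The promoters of 3 mitotic genes are shown because they carry the CHR letters before their start, in capitals here, on either strand. They were read like the 2 above, from chr7:135716380-135716539 on the minus strand (Mki67), chr11:99024190-99024349 on the minus strand (Top2a) and chr19:37376222-37376381 on the plus strand (Kif11).
Mki67: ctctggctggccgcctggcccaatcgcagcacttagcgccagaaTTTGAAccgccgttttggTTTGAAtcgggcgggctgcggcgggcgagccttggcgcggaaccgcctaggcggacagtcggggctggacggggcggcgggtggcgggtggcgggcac
Top2a: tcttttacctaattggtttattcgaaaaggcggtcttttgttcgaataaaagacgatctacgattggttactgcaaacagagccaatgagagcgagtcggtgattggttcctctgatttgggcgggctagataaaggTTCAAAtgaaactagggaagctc
Kif11: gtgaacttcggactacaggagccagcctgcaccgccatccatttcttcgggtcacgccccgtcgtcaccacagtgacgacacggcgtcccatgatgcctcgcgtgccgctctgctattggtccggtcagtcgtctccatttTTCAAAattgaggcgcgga
Mki67 has 2 CHR matches in this stretch, Top2a and Kif11 have 1 each, close to the start.

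Matches were then counted in the window from 250 bases before to 50 after the start, on both strands, for the 31 of 36 genes found in the RefSeq promoter table (Foxm1, Tpx2, Aurkb, Mcm4 and Ccna2 have no entry). The CHR letters searched were TTTGAA and TTTAAA. They occurred in 18 of 21 mitotic genes (85.7%) and 4 of 10 S-phase genes (40.0%), beside 30.6% of the 27025 genes in the table. The E2F letters searched were TTTCCCGC, TTTGGCGC, TTTCGCGC and TTTGCCGC, and matches could overlap one another. They occurred in Mcm3, Mcm5, Mcm6 and Mcm7, 4 of 10 S-phase genes (40.0%), and in Cdk1 alone of 21 mitotic genes (4.76%), beside 2.6% of all genes. CCAAT, the box bound by NF-Y, occurred in 16 of 21 mitotic genes (76.2%) and 8 of 10 S-phase genes (80%), beside 41.1% of all. Counting only the 250 bases before the start left CHR letters in 12 of 21 mitotic genes (57.1%) and 3 of 10 S-phase genes (30.0%), beside 28.1% of all genes. E2F letters were then left in 3 of 10 S-phase genes (30.0%) and 1 of 21 mitotic genes (4.76%), beside 2.16% of all genes. These matches are descriptions of letters and not of binding.

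**Figure D3:**
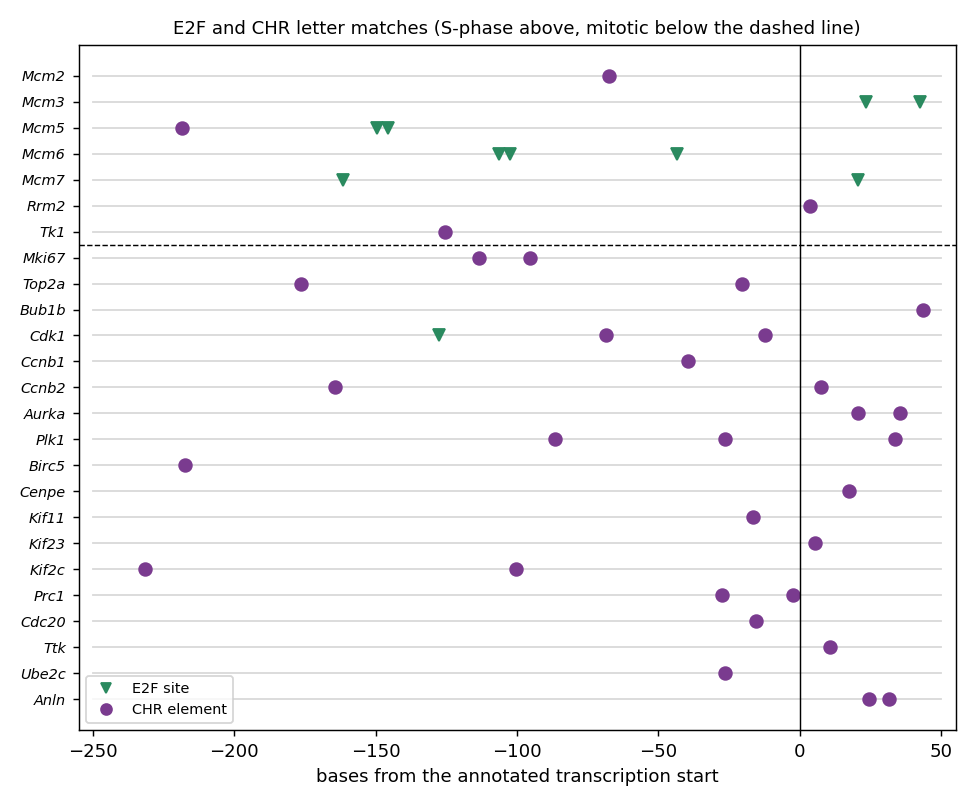
Position of E2F matches (triangles) and CHR matches (circles) in bases from the annotated transcription start, for the S-phase genes (above the dashed line) and mitotic genes (below it) with at least 1 match. CHR matches are spread over 18 mitotic genes, and E2F matches occur in 4 helicase genes and in Cdk1.

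The other mitotic genes that passed edgeR's filter were also below 0 without being called. Cdk1, the kinase that drives mitotic entry, had a log2 fold change of -0.93 ± 0.29 (SE, adjusted p = 0.0749 by edgeR). Cenpe, a kinetochore motor, had -0.76 ± 0.30 (0.144), and the central spindle motor Kif23 had -0.57 ± 0.25 (0.188). Anln, a scaffold of the contractile ring, had -0.38 ± 0.16 (0.173), the spindle assembly factor Tpx2 -0.43 ± 0.28 (0.386) and the microtubule-binding Nusap1 -0.32 ± 0.18 (0.315). Cdc20, which activates the ubiquitin ligase that starts anaphase, had the smallest difference of the 13 (-0.18 ± 0.23, 0.692). Values of the 13 thus ran from -1.37 to -0.18.

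The 12 remaining mitotic genes were too low for edgeR's filter and are given from the fit with at least 20 reads. Kif2c, a motor that frees wrongly attached microtubules, had 15 reads over the 10 rapamycin hearts, 3 of which had none, and 68 over the 10 controls, and fell by a log2 fold change of -2.05 ± 0.52 (SE, adjusted p = 0.0400 by edgeR). All 10 rapamycin hearts were below the control median for Kif2c. The checkpoint kinases Bub1 (-1.60 ± 0.43, 0.0511) and Ttk (-1.49 ± 0.50, 0.0952) were not called, and Bub1b missed the threshold in that fit (0.0506). Melk, a kinase of dividing cells had -1.25 ± 0.50 (0.147), and Birc5, the survivin subunit of the chromosomal passenger complex, had -1.14 ± 0.41 (0.116). The ubiquitin-conjugating enzyme Ube2c had -0.80 ± 0.39 (0.225), the passenger kinase Aurkb -0.58 ± 0.41 (0.423), the B-type cyclin gene Ccnb1 -0.48 ± 0.50 (0.614) and the mitotic kinase Plk1 -0.42 ± 0.27 (0.376). Foxm1, a transcription factor of mitotic genes, had -0.40 ± 0.32 (0.495), the spindle pole kinase Aurka -0.27 ± 0.28 (0.606) and Ccnb2 -0.09 ± 0.30 (0.899). In single libraries these 12 genes had 0 to 34 reads, which limits the precision of their values.

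Summed over the 25 genes, mitotic transcripts took 24.0, 29.1 and 67.1 normalised CPM as lowest, median and highest of the rapamycin hearts, and 32.5, 53.1 and 99.1 in controls. Of the rapamycin hearts 9 lay between 24.0 and 36.7, and rapamycin 8 stood alone at 67.1. Controls were spread more widely, from control 11 (32.5), control 17 (35.2) and control 20 (37.8) up to control 13 (71.6), control 7 (73.8) and control 16 (99.1). The 11 S-phase genes summed to 112, 119 and 140 normalised CPM with rapamycin and 104, 132 and 155 in controls, with control 17 lowest. Mitotic transcripts amounted to 21.1% to 48.0% of S-phase transcripts with rapamycin, with a median of 23.9%, and to 27.0% to 67.8% in controls, with a median of 43.1%. Without rapamycin 8 the highest rapamycin heart was at 28.6%, and control 11 was the only control below that. These sums rest on 223 to 602 mitotic reads per rapamycin library and 312 to 950 per control library. Control 16 was the highest control for 14 of the 25 mitotic genes and control 11 the lowest for 8.

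**Figure D4:**
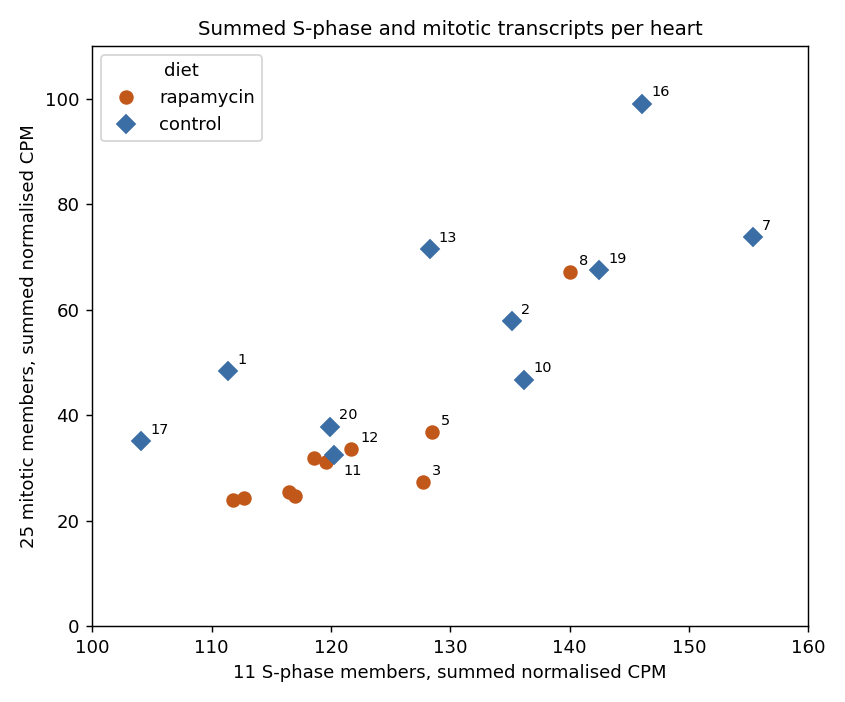
Summed normalised CPM of the 11 S-phase genes (x axis, starting at 100) and of the 25 mitotic genes (y axis) in each heart, with numbers naming all controls and 4 rapamycin libraries. Rapamycin hearts other than rapamycin 8 lie at or below 36.7 on the mitotic axis, where controls reach 99.1, while the groups share most of the S-phase axis.

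The libraries with thymocyte transcripts often stood at the inner edges of their groups for these genes. Rapamycin 8 was the highest rapamycin heart for 20 of 25 mitotic genes and 4 of 11 S-phase genes. Control 17 was the lowest control for 11 of 25 mitotic genes and 6 of 11 S-phase genes, and the highest control for 2 mitotic genes. By mitotic sum control 11 (32.5) lay below control 17 (35.2). Over the whole list of 12 thymocyte markers, summed levels were 34.2 to 103 normalised CPM with rapamycin, with rapamycin 8 highest, and 37.3 to 78.3 in controls, where control 11 was highest and control 17 had 58.0. The defining markers Rag1, Rag2, Dntt and Ptcra were at 0 in 17, 17, 15 and 13 of the 20 libraries. Control 17 stood apart by Rag1 and Dntt alone of these 4, since its 1 read each of Rag2 and Ptcra was no more than the highest of the other 18 libraries. Dntt, the polymerase that adds bases at antigen receptor joints, had 7.14 normalised CPM in rapamycin 8, 1.91 in control 17 and at most 0.121 elsewhere.

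Without rapamycin 8 and control 17, 7 of the 14 mitotic genes that then passed edgeR's filter fell, beside 3.11% of 13970 genes called lower. Of the 11 S-phase genes 0 fell, and 4 had an unadjusted p under 0.05 with a lower value (edgeR), beside 1823 of the 13970 genes. Top2a had -1.89 ± 0.34 (SE, adjusted p = 0.00561 by edgeR), Mki67 -1.71 ± 0.28 (0.00433), Ccna2 -1.21 ± 0.28 (0.0227), Kif11 -1.17 ± 0.21 (0.00657), Cdk1 -1.16 ± 0.28 (0.0259), Bub1b -0.93 ± 0.21 (0.0184) and Anln -0.52 ± 0.14 (0.0409). In the fit with at least 20 reads, 8 of all 25 mitotic genes fell without these 2 libraries, beside 2.16% of 18057 genes called lower. They were Mki67, Top2a, Bub1, Bub1b, Cdk1, Ccna2, Kif11 and Kif2c. Compared with all 20 libraries, 24 of 25 mitotic genes had a lower log2 fold change, with Ube2c as the exception, and the median of the 25 moved to -0.89. All 11 S-phase genes also had a lower value and their median moved to -0.23, with Mcm3 at -0.39 ± 0.12 (adjusted p = 0.0697 by edgeR with its own filter). Rapamycin 8 was the highest rapamycin heart for 20 of 25 mitotic genes and control 17 the lowest control for 11. Leaving both out therefore lowers most values by construction, and the shifts and added calls are no independent support.

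**Figure D5:**
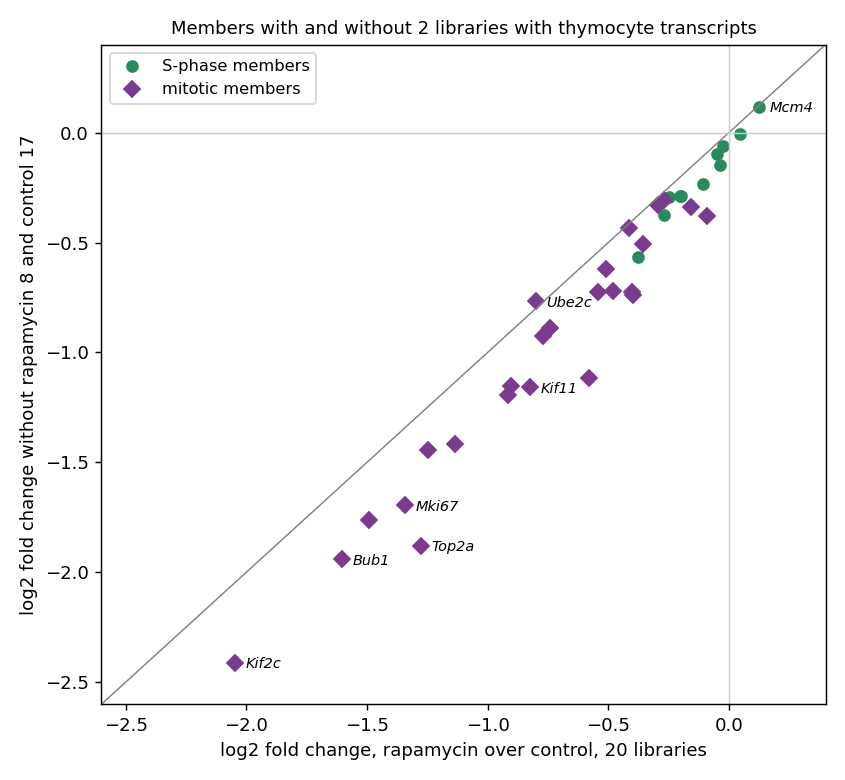
Log2 fold change of rapamycin over control without rapamycin 8 and control 17 (y axis) against that in all 20 libraries (x axis) for the 36 genes in the fit with at least 20 reads, with the line of equal values. All S-phase genes and 24 of 25 mitotic genes lie below the line, and Top2a lies at -1.88 without these libraries and at -1.28 with them. A drop of most values follows from the choice of libraries, as rapamycin 8 was often the highest of its group and control 17 often the lowest.

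Leaving out control 19, the library with the most lung transcripts, left Mki67 as the 1 mitotic gene that fell (-1.32 ± 0.32, SE, adjusted p = 0.0275 by edgeR), beside 2.33% of 13977 genes called lower. Bub1b then had -0.74 ± 0.21 (0.0533). With at least 20 reads Mki67 and Kif2c fell, beside 1.79% of 17999 genes. With edgeR's own filter the medians without control 19 were -0.14 for S-phase and -0.73 for 13 mitotic genes, close to those of all libraries. With at least 20 reads the median of all 25 mitotic genes was -0.68 without control 19. Without rapamycin 8, control 17 and control 19 together, 6 mitotic genes fell (Mki67, Top2a, Bub1b, Cdk1, Ccna2 and Kif11), beside 3.17% of 14003 genes. With at least 20 reads, 9 of 25 fell in these libraries, Bub1, Birc5 and Kif2c being added, beside 2.33% of 17806 genes called lower. Without the 4 libraries with lung transcripts (rapamycin 15, control 1, control 19 and control 20) Mki67 was the 1 gene of the 36 that fell (-1.38 ± 0.34, 0.0441), beside 1.37% of 14014 genes. With at least 20 reads Mki67 alone of the 36 fell without those 4 (beside 0.921% of 17584 genes), and 24 of 25 mitotic genes were below 0.

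Single hearts also decided calls near the threshold. In 20 fits that each left out 1 library, Mki67 kept a log2 fold change of -1.61 to -1.17 and was called in 16. It was lost without rapamycin 4, 6, 12 or 18 (adjusted p up to 0.0567 by edgeR), fits in which 165 to 192 genes of the whole table were called. Bub1b was called in 9 of the 20 fits, with values of -0.89 to -0.66 and adjusted p-values of 0.0278 to 0.0762. It was lost without rapamycin 4, 6, 9, 12, 14, 15 or 18 or control 2, 7, 16 or 19. Top2a and Kif11 were called without rapamycin 8 or control 17 (lowest adjusted p = 0.0139 for each), Ccna2 without rapamycin 8 (0.0313) and Cdk1 without rapamycin 5, control 10 or control 17 (lowest 0.0402). No S-phase gene was called in any of the 20 fits.

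Wider lists of the same machinery hold none of the 36 genes, and their differences from the lists above were not tested. Of 50 other genes of DNA replication and chromatin copying, 45 passed edgeR's filter, and none was called in either direction (edgeR, median -0.06). Of these 45, 30 were below 0, beside 7318 of 13940 genes. At an unadjusted p under 0.05, 7 were lower and 3 higher, beside 13.5% and 8.21% of all genes. With at least 20 reads all 50 were tested, 33 were below 0 (51.2% of all genes) and none was called (median -0.06). Tested only in that fit were Clspn (-1.22, adjusted p = 0.0831 by edgeR), Chaf1b (-0.78, 0.0882), Mcm10 (-0.71, 0.231), Dtl (-0.51, 0.573) and Gins2 (-0.09, 0.865). Cdt1, which loads the helicase onto origins, had 1.01, 1.57 and 2.45 normalised CPM as lowest, median and highest with rapamycin and 1.67, 2.35 and 3.03 in controls (-0.49 ± 0.14, SE, adjusted p = 0.0616 by edgeR). Uhrf1, which takes part in copying DNA methylation onto the new strand, had 0.450, 1.18 and 4.13 with rapamycin and 1.46, 2.51 and 5.42 in controls (-0.97 ± 0.30, 0.0700). Without rapamycin 8 and control 17 both fell (-0.61 and -1.32, adjusted p = 0.0181 and 0.00892 by edgeR). The salvage kinase gene Dck had -0.54 ± 0.18 (0.0894), and Rpa1, which covers single-stranded DNA, had 0.20 ± 0.06 (0.0742).

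Of 68 other mitotic genes, all could be tested with at least 20 reads, and 61 had a log2 fold change below 0 (51.2% of all genes), with a median of -0.48. In that fit 1 fell and 1 rose, beside 346 and 110 of 18218 genes. At an unadjusted p under 0.05, 29 were lower and 3 higher there (edgeR), beside 2479 and 1599 genes. With edgeR's filter 38 remained, of which 32 were below 0 (7318 of all 13940 genes) with a median of -0.26. Of the 38, 1 fell and 1 rose (background 2.68% lower and 0.689% higher). At an unadjusted p under 0.05, 15 were lower and 3 higher, beside 13.5% and 8.21% of all genes. Cenpf had the highest value (0.72 ± 0.24, SE, adjusted p = 0.0905 by edgeR). Sums over the 68 averaged 426 ± 21.4 normalised CPM with rapamycin and 424 ± 46.1 in controls (SD). Such sums weigh the most abundant genes most. The mean log2 CPM over the 68, which weighs genes alike, averaged 0.761 ± 0.205 with rapamycin and 1.145 ± 0.337 in controls (SD). Iqgap3, a scaffold protein linked to proliferation, had 0.125, 0.764 and 1.34 normalised CPM with rapamycin and 0.607, 1.56 and 3.02 in controls, and fell (-1.08 ± 0.26, SE, adjusted p = 0.0282 by edgeR). Pttg1, securin, which holds back the enzyme that cuts sister chromatids apart, had 61.0, 73.0 and 83.8 with rapamycin and 55.1, 60.0 and 75.2 in controls, and rose (0.24 ± 0.06, 0.0443). The groups overlapped for both genes. Without rapamycin 8 and control 17 Pttg1 was no longer called (0.0540), and Racgap1, a regulator of the central spindle, fell with Iqgap3 (-1.11 ± 0.29, adjusted p = 0.0417 by edgeR) where all libraries gave -0.92 ± 0.30 (0.0833). The phosphatase gene Cdc25b had -0.46 ± 0.15 (0.0770). With 1 library left out, Iqgap3 was called in 14 of 20 fits, being lost without rapamycin 4, 6, 12, 15 or 18 or control 2 (adjusted p up to 0.0601 by edgeR). Pttg1 was called in 7 of 20, being lost without rapamycin 4, 6, 8, 12, 14, 15 or 18 or control 1, 2, 7, 11, 13 or 20 (up to 0.0846).

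All 33 regulators of G1 and the entry into S phase were tested, and their median was -0.02. Of the 33, 17 were below 0, beside 7318 of 13940 genes, and 2 fell, beside 2.68% of all genes called lower. At an unadjusted p under 0.05, 3 were lower and 0 higher (edgeR), beside 13.5% and 8.21% of all genes. E2f1, an activator of S-phase genes, had 0.887, 1.253 and 2.45 normalised CPM as lowest, median and highest with rapamycin and 1.47, 2.14 and 4.003 in controls, and fell (-0.81 ± 0.21, SE, adjusted p = 0.0394 by edgeR). Its relative E2f2 had 0.665, 1.72 and 3.23 with rapamycin and 1.47, 3.97 and 21.7 in controls, and fell (-1.70 ± 0.45, 0.0407). Control 19 was the highest control for both. Without it neither was called (-0.71 and -1.13, adjusted p = 0.0548 each by edgeR). Both were called without rapamycin 8 and control 17 (adjusted p = 0.0181 for E2f1 and 0.0407 for E2f2 by edgeR) and without these and control 19 (0.0229 and 0.0473). With at least 20 reads E2f2 was called (0.0474 by edgeR) and E2f1 was not (0.0521). With 1 library left out E2f1 was called in 8 of 20 fits, being lost also without rapamycin 3, 4, 6, 12, 14, 15 or 18 or control 2, 7, 11 or 13 (up to 0.0767). E2f2 was called in 9, being lost also without rapamycin 4, 6, 9, 12, 14, 15 or 18 or control 1, 7 or 16 (up to 0.0786). Cdkn2a, which encodes the inhibitor p16, had 0.338, 0.945 and 1.44 with rapamycin and 0.834, 1.34 and 2.08 in controls (-0.53 ± 0.21, 0.1505). Lin52, a subunit of the MuvB core, had 0.15 ± 0.07 (0.252).

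Some markers of immune cells, which can divide in tissue, also fell with rapamycin (background 2.68% of 13940 genes called lower by edgeR). All 14 macrophage markers were below 0 and 8 fell, with summed levels of 388 to 685 normalised CPM with rapamycin and 506 to 1105 in controls. Of 13 markers of T and NK cells 7 passed edgeR's filter and 3 fell, with sums of 19.8 to 37.2 with rapamycin and 31.3 to 116 in controls. Of 9 neutrophil markers 2 passed the filter and both fell, with sums of 4.24 to 42.3 with rapamycin and 3.31 to 2541 in controls, where control 19 was highest and the next, control 1, had 158. None of 10 tested B and plasma cell markers was called, with sums of 32.0 to 109 with rapamycin and 28.0 to 509 in controls. At an unadjusted p under 0.05, 9 of these 10 were lower (edgeR), beside 13.5% of all genes. Without rapamycin 8 and control 17, 1 of the 10 fell, beside 3.11% of 13970 genes called lower. Without these and control 19, 4 of the 10 fell, beside 3.17% of 14003 genes. Without control 19 alone 0 of the 10 fell, beside 2.33% of 13977 genes. Of macrophage markers 5, 9 and 9 of 14 fell in these fits, in that order. Of T and NK markers it was 3 of 6, 2 of 6 and 2 of 7. Without the 4 libraries with lung transcripts, 6 of 14 and 1 of 7 fell, beside 1.37% of 14014 genes. In the fit with at least 20 reads, 5 of 14 macrophage and 2 of 12 T and NK markers fell, beside 1.9% of 18218 genes. In that fit 5 of 8 neutrophil and 0 of 11 B and plasma markers fell. The highest B and plasma sums were those of control 19 (509), control 16 (342), control 7 (326) and control 10 (207), whose mitotic sums were 67.6, 99.1, 73.8 and 46.8. Control 13, with a mitotic sum of 71.6, had a B and plasma sum of 95.9, and control 11, with the highest T and NK sum of all hearts, had the lowest mitotic sum of the controls. Erythroid markers summed to 89.3 to 780 with rapamycin and 52.9 to 2974 in controls, with control 17 highest. No endothelial and no fibroblast marker of 10 each was called (edgeR, none at an unadjusted p under 0.05), with medians of -0.06 and -0.10. The part of these cells in the mitotic differences was not tested.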

How the data were processed

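Per the labels and the design text, poly(A) RNA of 20 hearts, each from its own mouse, was sequenced as 50 base paired-end reads and uniquely mapped to MGSCv37. Which aligner, counter and strand setting were used is not given in the sources, and overlapping or antisense genes may share reads. The authors deposited raw counts per gene symbol. The authors also deposited CPM of 700 genes, of which 696 were found by symbol, all within 0.001 CPM of the counts over their column total. Each of the 90 pairs within a group differed by more than sampling noise (chi-square over its degrees of freedom at least 5.72).

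Counts were tested with edgeR 4.0.16 (R 4.3.3): expression filter, TMM, quasi-likelihood F-test, no covariates, Benjamini-Hochberg over all genes tested, threshold 0.05. Standard errors are |log2 fold change| over the root of F. CPM were normalised with TMM library sizes. The biological coefficient of variation was 0.202. DESeq2 1.42.0 was an alternative. The scripts were tested on simulated data. Promoters came from RefSeq for GRCm38.p6.

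The 36 members and all lists were chosen with earlier results of these data known. Values per heart are given for called genes and, within S-phase and mitotic genes, for the 4 with the smallest p and the 3 with the highest mean CPM. From the wider lists, called genes and the 4 with the smallest p are named. Kif2c was added after its values were seen. Fits with at least 20 reads and libraries left out, and values of the wider lists with libraries left out, were also added after seeing the data.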

Additional observations from a re-analysis of the deposited data

Results flagged for a closer look

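For each gene and group the highest and lowest heart were compared with the other 9 on the log2 CPM scale, and 4 of 72 groups held a heart whose gap to its nearest neighbour took a larger share of the group's range than the 95% critical value of Dixon's test. Chance alone flags about 1 in 20 groups. Kif11 had 1 rapamycin heart apart, rapamycin 8, the highest at 3.68 normalised CPM, with a gap of 0.550 of the range. Aurkb also had rapamycin 8 as its highest rapamycin heart, at 1.79 normalised CPM, with a gap of 0.469. Birc5 had rapamycin 9 as its lowest rapamycin heart, with 0 reads and a gap of 0.516. Aurka had control 11 as its lowest control, at 0.104 normalised CPM and a gap of 0.690.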

How the results depend on the processing

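DESeq2 called 969 genes where edgeR called 469, and 6 mitotic genes (Mki67, Top2a, Bub1b, Cdk1, Ccna2 and Kif11) where edgeR called 2. Without the 4 libraries with lung transcripts 280 genes were called, and 1 of 13 mitotic genes fell, beside 1.37% of all genes called lower. Without control 19, 1 of 13 mitotic genes fell, beside 2.33% of all genes called lower. Without the 2 libraries with thymocyte transcripts 7 of 14 fell (3.11% of all genes), and without these and control 19, 6 of 14 (3.17%). Leaving out 1 library at a time gave 165 (without rapamycin 18) to 791 (without rapamycin 5) genes called and 0 (without rapamycin 4, 6, 12 or 18) to 5 (without rapamycin 8) mitotic genes. Without rapamycin 8, 348 of 14018 genes were called in either direction. In those 20 fits the S-phase median was -0.20 to -0.07 and the mitotic median -0.83 to -0.60. The cause of these shifts was not tested. No S-phase gene was called under any of these alternatives. Genes that were not called changed sign in 4 fits: Mcm7 had -0.0203 without the 2 libraries with thymocyte transcripts and -0.0068 to 0.0688 with 1 library left out, being below 0 without control 11 or control 17, and Cdc20 had 0.0298 without the 4 libraries with lung transcripts. RLE scaling moved the median over all genes by 0.01 (log2) and called the same number of mitotic genes, 2. Of the values for single genes under the alternatives, 582 kept their direction and side of the threshold, 21 passed it newly and 17 lost it. The fits that combine the 20-read filter with left-out libraries were chosen after seeing the data. No paired analysis was possible because each number in the sample titles occurs in 1 group only. Depth limits the 12 mitotic genes that missed edgeR's filter, none of which had more than 34 reads in a library.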
